A study of Mus musculus with 9 samples.

Results

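The 3 duodenal libraries whose titles end in number 2 were set against the 3 whose titles end in number 1, of 9 libraries in all, whatever the treatment in the title. This comparison was chosen from measured values of the same libraries: the transcript levels of *Cyp24a1*, *Trpv6*, *S100g*, *Slc30a10* and *Slc37a2* were high in every library numbered 2. Calcitriol 2 is set apart within number 2 because levels of pancreatic enzyme genes differed between it and the other libraries of its number. For these reasons, differences between the numbers, and those of calcitriol 2 within its number, are given below as a description, with no test. Each number holds 1 library labelled vehicle, 1 labelled calcitriol and 1 labelled calcitriol and ZK. Calcitriol is 1,25-dihydroxyvitamin D3, the hormonal form of vitamin D, and ZK is ZK168281, an analog of calcitriol that antagonizes its receptor. All mice were male C57BL/6 J animals of 10 weeks, dosed per os in sunflower oil and examined after 6 h, and poly-A RNA of the duodenum was sequenced. The treatment labels are in doubt, since *Cyp24a1* was high in a library of each treatment label, vehicle included, so libraries are called by what is on their label, as in vehicle 2.

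The duodenum is the first part of the small intestine and the main site of regulated calcium uptake. Calcitriol binds the vitamin D receptor (VDR), which pairs with a retinoid X receptor on DNA and turns on genes such as *Cyp24a1*, whose enzyme inactivates calcitriol. Calcium then enters the enterocyte through the channel TRPV6, is carried by calbindin-D9k (the product of *S100g*) and leaves through the pump PMCA1 (the product of *Atp2b1*).

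Total counts were 25734717 to 41207455 in the 6 libraries. Of 48709 genes in the table, 15002 had more than 100 reads over the 9 libraries and were kept. Values are CPM, read counts scaled to the size of each library with TMM factors, and 1 CPM stood for 23.4 to 42.4 reads in these libraries. Transcripts of the mitochondrial genome took 3.04 to 3.5% of the counts in libraries numbered 2, against 7.9 to 9.05% in libraries numbered 1. The CPM do not account for transcript length, so levels are compared between libraries and not between genes. In RNA of whole tissue, fewer cells of a type and less RNA per cell cannot be told apart.

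Pairs of libraries were first compared gene by gene. The mean chi-square per gene, which is about 1 when 2 libraries differ by sampling noise alone, was 3.70 between vehicle 2 and calcitriol and ZK 2, 97.4 and 103.9 between each of these and calcitriol 2, and 1.86 to 5.74 among the 3 libraries numbered 1. Between a library numbered 2 and one numbered 1 it was 244.9 to 423.1. Each library was counted as 1 sample, although values slightly above sampling noise, as in the closest pairs, do not show that libraries come from separate animals. The legend for these data in the study speaks of separate mice in each condition, but no label ties a library to a mouse. The spread between libraries of the same number may therefore be technical.

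Immunoglobulin variable genes, which encode the antigen-binding part of antibodies and are used in different proportions by the plasma cells of different animals, separated the libraries further. Of the 83 such genes with a mean of at least 10 CPM over the 9 libraries, 0 differed by more than 2-fold between vehicle 2 and calcitriol and ZK 2, whereas 32 and 31 differed between each of these and calcitriol 2. Among the 3 libraries numbered 1, 0 of 83 differed by more than 2-fold in each of the 3 pairs, and the same held for each of them against calcitriol 3. Between libraries numbered 2 and numbered 1, 39 to 45 of the 83 differed. For comparison, 4.5 to 6.92% of 7837 protein-coding genes at this level differed by more than 2-fold in these 9 pairs. The summed level of all 178 kept immunoglobulin variable genes was 3540 to 3744 CPM in libraries numbered 2 and 3248 to 3447 CPM in libraries numbered 1. This is a much smaller difference than that of single genes. These genes share sequence, and reads of close copies cannot be assigned with certainty. Whether libraries of 1 number share an animal or a pool of RNA was not tested.

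**Figure D1:**
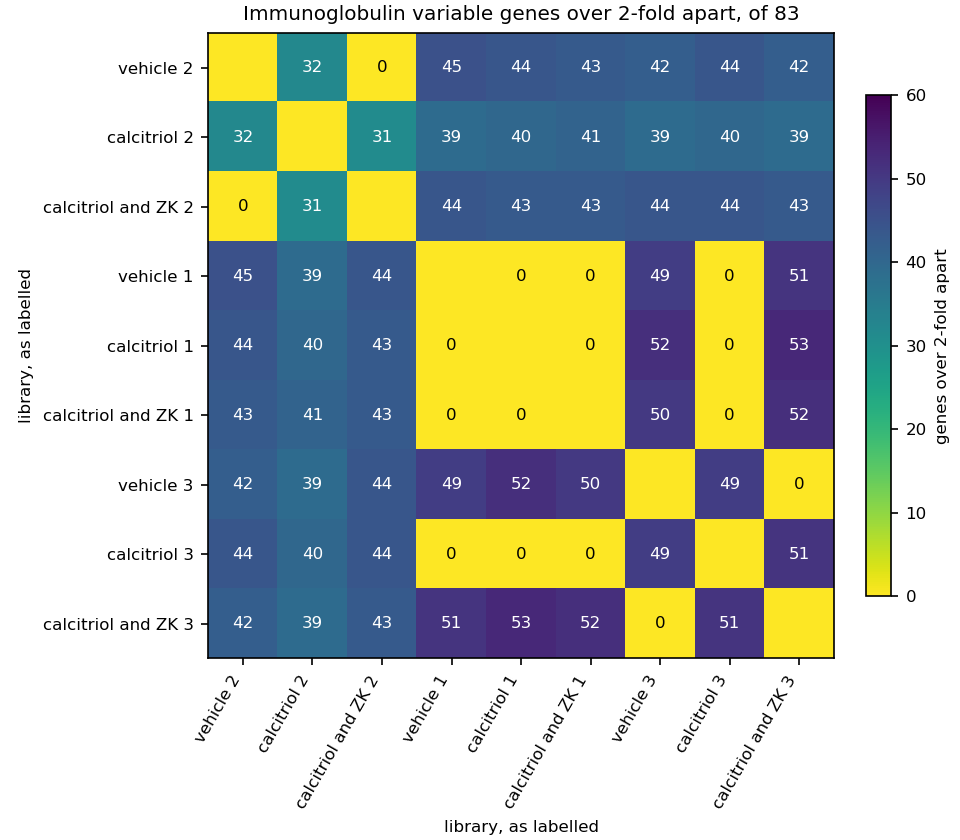
Number of the 83 immunoglobulin variable genes (mean of at least 10 CPM) whose TMM CPM differ by more than 2-fold between each pair of the 9 libraries; both axes give the libraries as labelled. Vehicle 2 and calcitriol and ZK 2 differ at 0 genes, calcitriol 2 differs from them at 32 and 31, and the 3 libraries numbered 1 differ at 0 genes from each other and from calcitriol 3.

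The genes used to choose the comparison were separated most clearly for *Cyp24a1* (chromosome 2, 170482708 to 170497145, minus strand, mm10). Its transcript level was 7531, 6420 and 7627 CPM in vehicle 2, calcitriol 2 and calcitriol and ZK 2, against 2.70, 2.496 and 6.13 CPM in vehicle 1, calcitriol 1 and calcitriol and ZK 1. The ratio of the means was 1905. In the libraries numbered 3 it was 2.47, 9.12 and 4.05 CPM (labelled vehicle, calcitriol, and calcitriol and ZK), so none of these reached the level of number 2. Exons of *Pfdn4* overlap it on the other strand, and how the counting treated strand is not known from the labels or methods.

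*Trpv6*, the apical calcium channel (chromosome 6, 41620624 to 41636405, minus strand), had 313.5, 244.8 and 298.6 CPM in vehicle 2, calcitriol 2 and calcitriol and ZK 2. It had 0.342, 0.421 and 0 CPM in vehicle 1, calcitriol 1 and calcitriol and ZK 1, which is 8, 13 and 0 reads. *S100g*, which encodes the calcium shuttle calbindin-D9k (chromosome X, 162961992 to 162964599, minus strand), had 2819, 2141 and 2783 CPM in number 2 against 220, 212.6 and 229 CPM in number 1, an 11.7-fold ratio of the means. Unlike *Cyp24a1*, *S100g* was intermediate in 2 libraries numbered 3, at 807 CPM in vehicle 3 and 861 CPM in calcitriol and ZK 3, with 230 CPM in calcitriol 3. *Slc30a10*, a manganese exporter (chromosome 1, 185454848 to 185468762, plus strand), had 394, 329 and 392 CPM in number 2 against 76.3, 70.7 and 74.5 CPM in number 1. *Slc37a2*, a sugar-phosphate exchanger (chromosome 9, 37227585 to 37255738, minus strand), had 762, 636 and 729 CPM in number 2 against 121, 120 and 126 CPM in number 1. In vehicle 3, calcitriol 3 and calcitriol and ZK 3, *Slc30a10* had 135, 76.1 and 137 CPM and *Slc37a2* had 202, 118 and 195 CPM. Both were thus intermediate in the same libraries as *S100g*, whereas *Trpv6* had 1.06, 0.244 and 0.814 CPM. *Slc30a10* overlaps the antisense gene *Gm2061* and *Slc37a2* overlaps *Gm48081*. The groups did not overlap for any of the 5 genes, and within number 2 calcitriol 2 was the lowest library for each of them.

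**Figure D2:**
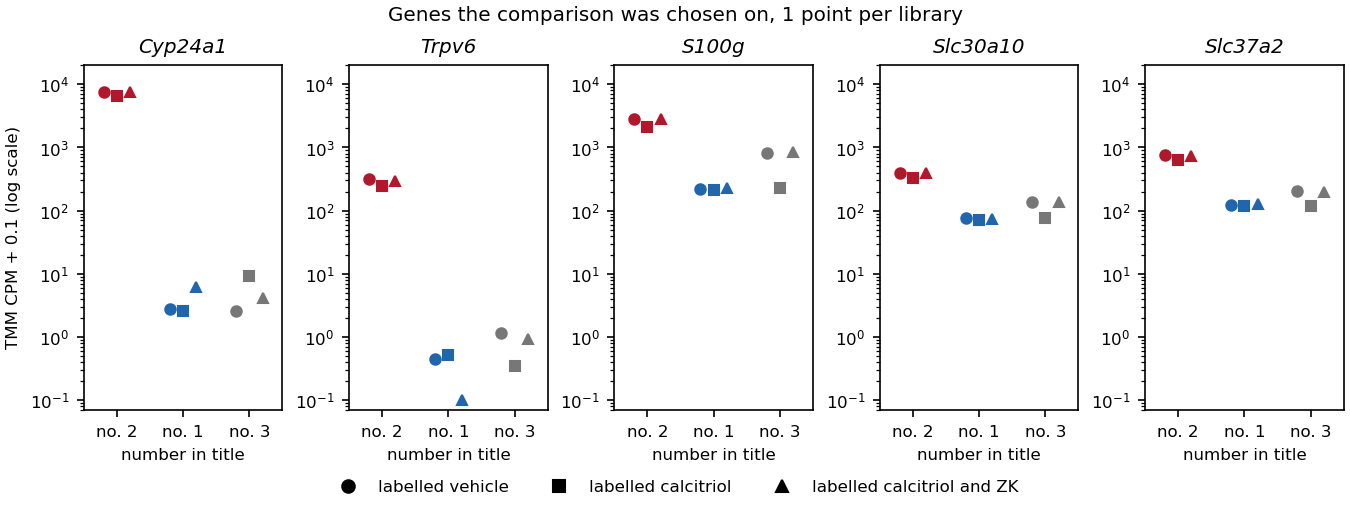
TMM CPM plus 0.1 on a log axis for the 5 genes on which the comparison was chosen, 1 point per library, by the number in the title; the shape of the point is the treatment on the label. Each panel shows the 3 libraries numbered 2 above all the others, with *Cyp24a1* at 6420 to 7627 CPM in number 2 and 2.496 to 6.13 CPM in number 1.

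Promoter windows from 250 bases before to 50 after the transcript start (RefSeq, GRCm38.p6) were found for 4 of the 5 genes. They were searched on both strands for the DR3 motif, a direct repeat of a hexamer with 3 bases between the copies, the arrangement that VDR and its partner bind. None of the 4 windows held one, as for all but 84 of 32851 promoter windows (0.256%). Among genes higher in number 2 with a window, 6 of 1518 (0.395%) held the motif, among genes lower in number 2 1 of 948 (0.105%), and among all kept genes with a window 30 of 11163 (0.269%). A window without the motif says nothing of sites further away. The windows of the calcium channel and of calbindin-D9k are shown because these genes differed most along the path of calcium uptake. Capitals mark TATAAA on the strand of the gene, found in 8.32% of all windows and, in *S100g*, starting at the annotated transcript start.
Trpv6 (chr6:41636356-41636655, minus strand): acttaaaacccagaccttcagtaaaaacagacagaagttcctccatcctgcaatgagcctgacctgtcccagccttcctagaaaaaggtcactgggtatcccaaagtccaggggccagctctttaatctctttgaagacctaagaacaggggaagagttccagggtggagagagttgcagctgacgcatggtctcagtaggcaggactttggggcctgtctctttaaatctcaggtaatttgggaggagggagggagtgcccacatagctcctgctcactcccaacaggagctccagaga
S100g (chrX:162964550-162964849, minus strand): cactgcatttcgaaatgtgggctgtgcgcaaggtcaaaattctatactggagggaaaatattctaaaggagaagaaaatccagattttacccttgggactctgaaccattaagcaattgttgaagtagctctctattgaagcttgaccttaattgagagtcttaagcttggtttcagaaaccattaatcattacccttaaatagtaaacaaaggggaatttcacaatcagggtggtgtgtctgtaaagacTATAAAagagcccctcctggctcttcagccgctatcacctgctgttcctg

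A gene was counted as different when the 3 libraries numbered 2 and the 3 numbered 1 did not overlap and the log2 ratio of the means exceeded 0.58 in size, which is 1.5-fold. By this rule 2159 of 15002 genes were higher in number 2 (14.4%) and 1371 were lower (9.14%). Without a minimum fold, 4765 genes lay wholly above and 4508 wholly below number 1, and 5729 overlapped. Of the counted genes, 1055 were more than 2-fold higher and 416 more than 2-fold lower, and 170 were more than 10-fold higher against 10 more than 10-fold lower. The median log2 ratio over all genes was 0.027, with 5th and 95th percentiles of -0.791 and 1.261. Just inside the threshold lay *Ccnt2*, a cyclin, at a log2 ratio of 0.5801 and *Pole*, a DNA polymerase subunit, at -0.5806, and just outside it *Homer3*, a scaffold protein, at 0.5796 and *Ttc7* at -0.5798. Because number 2 differs from number 1 throughout, the counts of each gene list below are to be read against 14.4% and 9.14%.

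**Figure D3:**
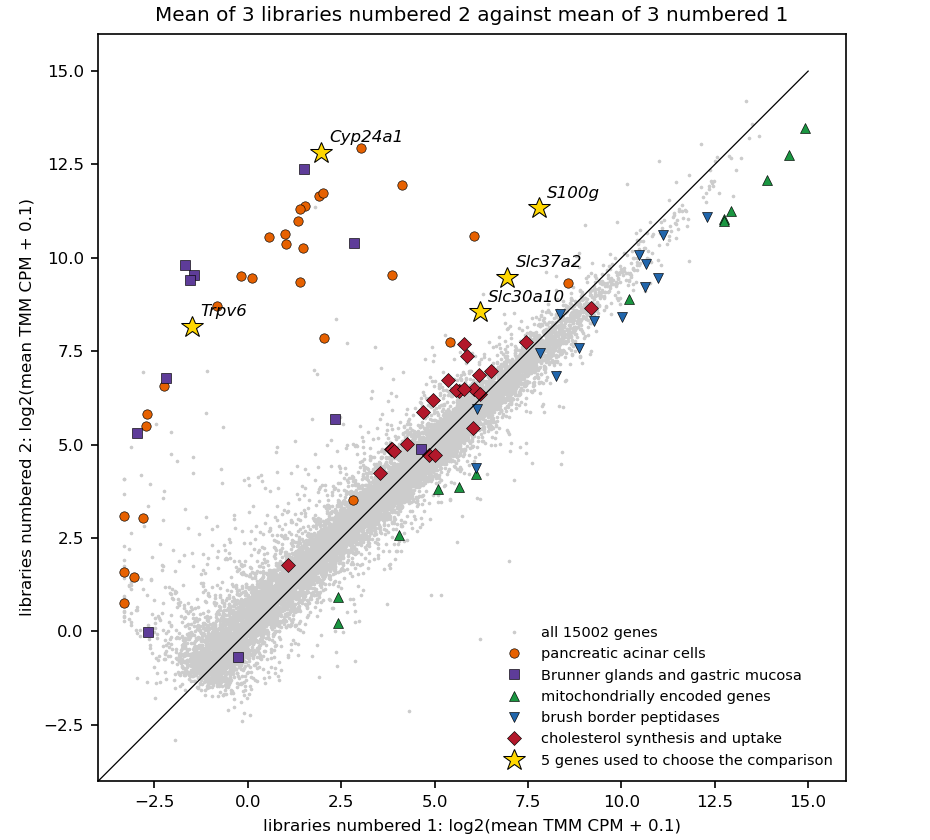
Mean TMM CPM of the 3 libraries numbered 2 (vertical) against the 3 numbered 1 (horizontal), both as log2 of the mean plus 0.1, for the 15002 genes kept; the line is equality. Acinar and gastric genes stand with *Cyp24a1* and *Trpv6* far above the line, and the 13 mitochondrially encoded genes lie below it.

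In the rest of the calcium path, *Atp2b1*, the basolateral calcium pump, had 751, 714 and 731 CPM in vehicle 2, calcitriol 2 and calcitriol and ZK 2, against 304, 298 and 307 CPM in the same order in number 1 (log2 ratio 1.27). It was also at 610 and 597 CPM in vehicle 3 and calcitriol and ZK 3. Of the 13 kept genes of calcium and magnesium transport, 4 were higher (*Trpv6*, *S100g*, *Atp2b1* and the magnesium channel *Trpm6*, itself below 1 CPM in every library) and 2 lower. *Nkain1*, which encodes a protein that interacts with the sodium pump, had 8.73 ± 1.16 CPM in number 2 and 2.29 ± 0.391 CPM in number 1 (SD, n = 3 each). Of 16 claudin and tight junction genes, 3 were higher and 1 lower. *Cldn2*, a pore-forming claudin, had 566, 455 and 545 CPM in number 2 and 79.6, 75.7 and 79.3 CPM in number 1, while *Cldn15*, the other main pore-forming claudin of the gut, had 414, 454 and 396 CPM against 767, 785 and 754 CPM. Both pore-forming claudins thus differed, in opposite directions.

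Next, the receptors were examined. *Vdr* was at 399, 436 and 402 CPM in number 2 and 494, 501 and 481 CPM in number 1, a log2 ratio of -0.26 that stayed inside the threshold although the groups did not overlap. *Rxra*, a retinoid X receptor, was lower, at 115, 129 and 112 CPM against 212, 218 and 212.7 CPM (-0.85). *Wbp4*, which encodes a protein of the spliceosome, had a log2 ratio of 0.38 and was not counted. Of 9 kept genes of vitamin D metabolism and reception, 1 was higher (*Cyp24a1*) and 4 were lower, among them *Cyp27a1*, a 25-hydroxylase, at 30.7 ± 4.26 CPM in number 2 and 64.4 ± 3.68 CPM in number 1 (SD, n = 3 each). A list of 10 genes of the duodenum and the VDR path had 7 higher and 1 lower, and since it holds the genes used to choose the comparison, this count is no independent evidence.

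Metal carriers other than *Slc30a10* went both ways: of 17 kept genes, 4 were higher and 5 lower. *Slc30a2*, a zinc transporter, had 377, 341 and 378 CPM in number 2 against 138, 141 and 136 CPM in number 1. *Mt1*, which encodes a metal-binding metallothionein, had 180, 139 and 185 CPM against 392, 445 and 398 CPM. Of 15 genes of iron handling, 3 were higher and 2 lower. The higher ones were *Cybrd1* (5.76-fold), *Hmox1* (8.91-fold) and *Ireb2* (2.62-fold). Among the lower ones was the proton-coupled folate and heme carrier *Slc46a1*, with 686, 710 and 650 CPM in number 2 and 1178, 1228 and 1144 CPM in number 1.

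Many genes of digestion and absorption at the enterocyte brush border were lower in number 2, but not all. Of 14 kept brush border peptidases, 9 were lower, 0 higher and 5 neither, with a median log2 ratio of -1.09. *Anpep*, aminopeptidase N, had 1596, 3322 and 1630 CPM in vehicle 2, calcitriol 2 and calcitriol and ZK 2, against 5078, 5048 and 5052 CPM in number 1. *Ace*, the angiotensin-converting enzyme, had 600, 948 and 572 CPM against 2046, 2068 and 1974 CPM. Calcitriol 2 was the highest of its number for both genes, and the groups stayed apart. Of 14 carriers of peptides and amino acids, 9 were lower, 0 higher and 5 neither (median -0.74), with *Slc6a19*, the main carrier of neutral amino acids, at 680, 826 and 651 CPM against 1275, 1206 and 1210 CPM. Of 15 genes of sugar digestion, uptake and handling, 8 were lower, 1 higher and 6 neither (median -0.60). Low levels were not particular to number 2. Summed peptidases were 7469 to 10868 CPM in number 2 and 16844 to 17255 CPM in number 1. In vehicle 3, calcitriol 3 and calcitriol and ZK 3 they were 10004, 16641 and 9637 CPM. Summed carriers split likewise in number 3 (2472, 3864 and 2381 CPM). Summed sugar genes in vehicle 3 and calcitriol and ZK 3 (18106 and 17390 CPM) lay between numbers 2 and 1. The alkaline phosphatases of the brush border were not counted, with log2 ratios of -0.14 for *Alpi* and 0.11 for *Akp3*.

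Sucrase-isomaltase (*Sis*) had 813, 1248 and 822 CPM in number 2 against 3677, 3428 and 3642 CPM in number 1, and lactase (*Lct*) had 879, 1260 and 835 CPM against 2055, 2060 and 1997 CPM. *Pck1*, the entry enzyme of gluconeogenesis, was among the 10 smallest ratios, with 17.2, 49.1 and 16.5 CPM against 334, 355 and 333 CPM, a 12.3-fold ratio toward number 1. *Slc28a1*, a nucleoside carrier of the brush border, had 16.5, 35.1 and 15.7 CPM against 196, 195 and 191 CPM. Of 14 general enterocyte markers 1 was higher and 2 were lower (median -0.31), and *Vil1*, which encodes the microvillus protein villin, had a log2 ratio of -0.30 and was not counted.

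Among detoxifying enzymes, of 20 kept genes of the Cyp2 and Cyp4 families and relatives, 14 were lower and 2 higher (median -1.08). Their summed level was 3364 to 3800 CPM in number 2 and 5391 to 5511 CPM in number 1. In vehicle 3, calcitriol 3 and calcitriol and ZK 3 it was 3427, 5364 and 3394 CPM. *Cyp2c29* had 18.3, 28.1 and 20.4 CPM in number 2 against 339, 328 and 343 CPM in number 1, 15.1-fold toward number 1, and *Cyp4f14* had 566, 752 and 540 CPM against 1609, 1591 and 1563 CPM. *Cyp2b10*, a target of the receptor CAR in liver, stood on the other side with 1170, 1074 and 1149 CPM against 463, 465 and 460 CPM. Of 26 conjugating enzymes, 13 were lower and 4 higher. The glucuronosyltransferase *Ugt2b34* had 892, 1026 and 911 CPM against 1773, 1721 and 1789 CPM, and the glutathione transferase *Gstm3* had 1992, 1702 and 1968 CPM against 535, 516 and 527 CPM. *Cyp3a11*, whose relatives oxidize vitamin D metabolites, had 4140, 4230 and 4297 CPM against 2878, 2692 and 2868 CPM, a log2 ratio of 0.59 just past the threshold. Members of these families share sequence, so their counts are uncertain.

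Of 23 genes of cholesterol synthesis and uptake, 15 were higher, 0 lower and 8 neither, with a median log2 ratio of 0.73. *Hmgcs1*, an early enzyme of the pathway, had 172, 159 and 165 CPM in number 2 against 59.0, 60.0 and 57.3 CPM in number 1. *Insig1*, which restrains the pathway when sterols are plentiful, had 217, 180 and 223 CPM against 57.2, 52.5 and 56.4 CPM. Without calcitriol 2 the list had 15 higher and 2 lower. Of 13 genes of sterol efflux and LXR targets, 5 were lower, 3 higher and 5 neither. *Abcg5*, a sterol exporter, was among the lower ones, at 116, 140 and 113 CPM against 247, 244 and 246 CPM. Of 18 genes of fatty acid uptake and triglyceride synthesis, 5 were lower and 3 higher. *Fabp1*, a fatty acid carrier, had 1761, 1998 and 1822 CPM against 3355, 3607 and 3427 CPM. *Apoa4*, an apolipoprotein of chylomicrons, had 18661, 18774 and 19488 CPM against 10252, 10925 and 10077 CPM, with 2 overlapping antisense genes.

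All 13 mitochondrially encoded genes were lower in number 2, with a median log2 ratio of -1.71. Some were at low levels, with *mt-Co2* at 0.865, 1.12 and 1.23 CPM in number 2 against 5.65, 4.05 and 5.92 CPM in number 1. Likewise, *mt-Co3* had 1.67, 1.97 and 1.74 CPM against 5.26, 4.12 and 6.26 CPM. *mt-Co1*, a subunit of cytochrome oxidase, had 10896, 11687 and 11428 CPM against 31737, 27822 and 32827 CPM, and *mt-Cytb*, a subunit of complex III, had 6423, 7188 and 7124 CPM against 23590, 20897 and 24179 CPM. Nuclear genes of fatty acid oxidation in mitochondria and peroxisomes did not go with them, at 1 higher and 4 lower of 22 and a median of -0.09. Between number 2 and number 1 the mitochondrial share differed together with the brush border genes, and its part in their difference was not tested. The share did not follow the number within number 3. It was 4.04% in vehicle 3, 7.85% in calcitriol 3 and 4.23% in calcitriol and ZK 3.

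Of the 10 largest ratios, 5 belonged to the list of Brunner glands and gastric mucosa and 1 (*Cel*) to the acinar list, the rest being *Cyp24a1*, *Trpv6*, *Psapl1* and *2310057J18Rik*. Of 11 kept genes of Brunner glands and gastric mucosa, 9 were higher and 0 lower, and their summed level was 9828, 7993 and 9745 CPM in vehicle 2, calcitriol 2 and calcitriol and ZK 2, against 39.72 to 42.6 CPM in number 1. *Gkn2*, a gastrokine of gastric surface cells, had 918, 793 and 970 CPM against 0.257, 0.162 and 0.209 CPM. *Tff2*, a trefoil peptide of Brunner glands and gastric neck cells, had 5697, 4643 and 5552 CPM against 2.40, 2.79 and 2.96 CPM. *Muc5ac*, a gastric mucin, had 41.7, 36.2 and 40.1 CPM against 0, 0 and 0.0834 CPM. *Gkn1*, *Tff1*, *Psapl1* and *2310057J18Rik* were below 1 CPM in every library numbered 1. In vehicle 3, calcitriol 3 and calcitriol and ZK 3, *Tff2* had 112, 3.66 and 111 CPM. *Gkn3* and *Muc6* split likewise in these libraries, at 38.2, 7.17 and 35.1 CPM and at 9.48, 0.0488 and 8.74 CPM. *Gkn2* and *Muc5ac* stayed near 0 there, at 0.352, 0.293 and 0.220 CPM and at 0.0503, 0 and 0 CPM. Of the 11 genes, 5 passed the filter on reads only through the reads of number 2 (*Gkn1*, *Gkn2*, *Muc5ac*, *Gif* and *Atp4a*), and 4 of these, all but *Atp4a*, are among the 9 counted, so the count of 9 is no support.

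Pancreatic acinar cells make the digestive enzymes that enter the duodenum through the pancreatic duct. Of 29 kept genes of these cells, 28 were higher in number 2 and 0 lower, and 2 passed the filter only through number 2. Their summed level was 51813, 11215 and 49750 CPM in vehicle 2, calcitriol 2 and calcitriol and ZK 2, against 537.5 to 578.7 CPM in number 1. *Ctrb1*, a chymotrypsinogen, had 11008, 1786 and 10977 CPM against 6.80, 8.33 and 8.84 CPM. *Cel*, the bile salt-stimulated lipase, had 2172, 354 and 2030 CPM against 1.07, 1.65 and 1.42 CPM. *Cela1*, an elastase, had 5346, 1515 and 5110 CPM against 15.96, 19.6 and 16.6 CPM. The members *Prss3*, *Try10* and *Amy2a5*, with means of 1.59 to 8.46 CPM in number 2, had no read in the libraries numbered 1. Acinar transcripts were not absent there, since *Ctrb1* had 628 and *Cela1* 1376 reads over those libraries. Trypsins and elastases share sequence, so single members are uncertain. Of 5 kept islet genes, 4 were higher and 1 lower, 2 of them kept only through number 2, with *Ins2* (insulin) at 123, 77.4 and 120 CPM against 0.0856, 0.130 and 0.1252 CPM and *Ins1* at 51.6, 36.8 and 52.7 CPM against 0.128, 0.0324 and 0.0834 CPM. Of the 170 genes more than 10-fold higher, 29 were in the 2 pancreatic lists, 9 in the gastric list and 10 were immunoglobulin variable genes. These pancreatic and gastric markers differed between number 2 and number 1 as other gene groups did, and their part in those groups' differences was not tested. They did not follow the number within number 3. In vehicle 3, calcitriol 3 and calcitriol and ZK 3, the acinar genes summed to 5010, 586.9 and 4944 CPM. The gastric genes summed to 207.6, 41.12 and 200.1 CPM in the same order.

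**Figure D4:**
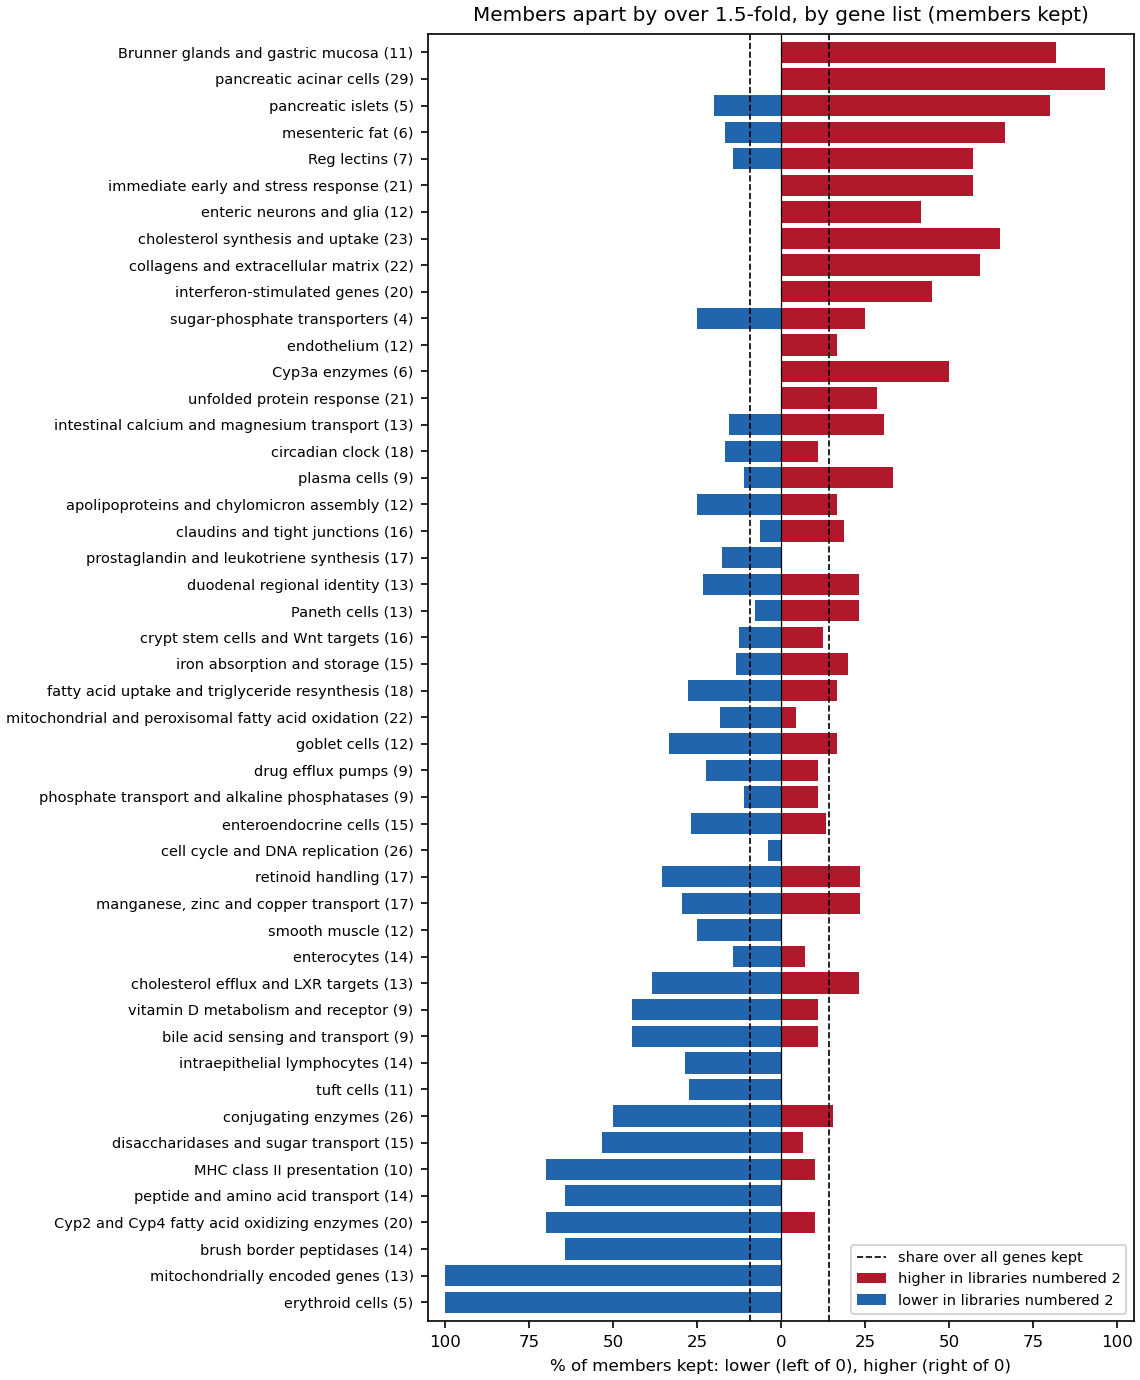
Share of the members kept of each list (number in brackets) that were higher (right of 0) or lower (left of 0) in libraries numbered 2 by more than 1.5-fold with no overlap, ordered by the median log2 ratio. Dashed lines give the shares over all 15002 genes, 14.4% higher and 9.14% lower; acinar, gastric, cholesterol synthesis and early response genes reach past the right one, and mitochondrially encoded, erythroid and brush border genes past the left one.

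Other epithelial lists held members on both sides. Of 12 goblet cell genes, 2 were higher and 4 lower, with the main intestinal mucin *Muc2* at 292, 309 and 281 CPM against 487, 485 and 473 CPM and *Agr2*, needed to fold mucin, at 448, 394 and 462 CPM against 262, 259 and 268 CPM. Of 7 Reg lectins, 4 were higher, 1 lower and 2 neither. *Reg3b*, an antimicrobial lectin, had 6479, 5528 and 6534 CPM in number 2 and 2067, 2004 and 2125 CPM in number 1, while *Reg3a* was the lower one (log2 ratio -0.96). Of the higher ones, *Reg2* (158, 59.1 and 158 CPM in number 2) and *Reg3d* (21.3, 5.36 and 20.4 CPM) were lower in calcitriol 2, as acinar genes were. Of 16 genes of crypt stem cells and Wnt targets, 2 were higher, 2 lower and 12 neither (median -0.03). *Olfm4*, a marker of crypt base cells, had 132, 149 and 123 CPM against 249, 246 and 244 CPM, whereas 412, 236 and 389 CPM were found in vehicle 3, calcitriol 3 and calcitriol and ZK 3. *Rnf43*, a Wnt target that restrains the pathway, stood on the other side with 49.3, 40.4 and 48.5 CPM against 25.03, 25.6 and 23.8 CPM. Cell cycle genes were near equal: of 26, 0 were higher and 1 lower (median -0.19), with the replication licensing gene *Mcm6* at 54.8, 57.7 and 56.8 CPM against 54.8, 57.9 and 53.9 CPM. Of 13 regional genes, 3 were higher and 3 lower. *Pdx1*, a transcription factor of pancreas, antrum and duodenum, had 166, 135 and 174 CPM against 55.0, 58.9 and 54.0 CPM, and *Hnf4g*, a factor of the enterocyte, had 113, 138 and 102 CPM against 238, 227 and 221 CPM.

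Of 21 early response and stress genes, 12 were higher, 0 lower and 9 neither, with a median log2 ratio of 0.83. *Fos* had 154, 156 and 159 CPM against 86.4, 91.3 and 83.1 CPM, and *Klf6* had 147, 137 and 145 CPM against 71.1, 71.0 and 75.3 CPM. Of 21 genes of the unfolded protein response, 6 were higher and 0 lower, among them *Atf4* with 116, 99.2 and 112 CPM against 62.1, 59.9 and 61.5 CPM.

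Stromal and immune groups split. Of 22 collagen and matrix genes, 13 were higher and 0 lower (median 0.68), with *Col3a1*, a collagen of connective tissue, at 67.4, 65.1 and 68.6 CPM against 37.4, 36.7 and 36.1 CPM. Of 12 smooth muscle genes, 0 were higher and 3 lower, with *Des* (desmin) at 178, 186 and 196 CPM against 351, 358 and 335 CPM. Of 10 genes of MHC class II presentation, 7 were lower and 1 higher (median -0.68). *Cd74*, the invariant chain, had 1315, 1788 and 1317 CPM against 2827, 2893 and 2816 CPM. Intraepithelial lymphocyte genes had 4 of 14 lower and 0 higher, while 9 of 20 interferon-stimulated genes were higher and 0 lower, with *Ifit1* at 46.4, 68.6 and 47.4 CPM against 28.1, 26.5 and 28.5 CPM. The 5 erythroid genes were all lower. *Hbb-bs*, a beta globin, had 32.6, 32.1 and 31.1 CPM against 95.3, 86.2 and 92.0 CPM.

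Among plasma cell genes, *Igha*, the constant part of IgA, had 8550, 8332 and 8353 CPM against 4466, 4569 and 4513 CPM, and *Jchain*, which joins IgA units, had 2734, 3170 and 2796 CPM against 4888, 4826 and 4948 CPM. Of 178 kept immunoglobulin variable genes, 78 (43.8%) were higher in number 2 and 44 (24.7%) lower. *Ighv1-43* had 0.0962, 0.174 and 0.118 CPM against 19.0, 20.1 and 20.8 CPM, which made it the smallest ratio of all genes with at least 10 CPM in the higher number (log2 -7.27). *Igkv3-9* had 0.224, 1.72 and 0.353 CPM against 71.1, 75.7 and 75.6 CPM. Low levels of both genes were not particular to number 2. In vehicle 3, calcitriol 3 and calcitriol and ZK 3, *Ighv1-43* had 0.176, 21.6 and 0.242 CPM and *Igkv3-9* had 0.478, 79.4 and 0.924 CPM. In all, 7 of the 10 smallest ratios belonged to such genes, the others being *Cyp2c29*, *Pck1* and *Slc28a1*.

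Calcitriol 2 is reported apart from vehicle 2 and calcitriol and ZK 2. It was more than 2-fold above both at 98 genes (0.653%) and more than 2-fold below both at 156 (1.04%), with counts under 3 raised to 3. Over the same 15002 genes, vehicle 2 had 6 above and 36 below, calcitriol and ZK 2 had 22 and 22, and each library numbered 1 had 33 to 43 above and 65 to 78 below the others of its number. Among the 8051 genes with a mean of at least 10 CPM in number 2, these were 28 and 45, whereas vehicle 2 had 0 and 1 and calcitriol and ZK 2 had 0 and 0 by the same rule, as did 0 and 0 for each library numbered 1. Of the 45 genes below, 22 were in the acinar list, 11 were immunoglobulin variable genes, and all 32 protein-coding ones among them were higher in number 2. The 24 acinar genes at this level were at a median of 0.226 of the mean of vehicle 2 and calcitriol and ZK 2, with *Ctrb1* the lowest at 0.163 and *Spink1*, a trypsin inhibitor, the highest at 0.839. Gastric genes were at a median of 0.81, *Ins2* at 0.638 and *Ins1* at 0.705, and the 5 genes used to choose the comparison at 0.764 (*S100g*) to 0.854 (*Slc37a2*), with *Cyp24a1* at 0.847. The distance of the acinar genes restates the values for which calcitriol 2 was set apart.

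**Figure D5:**
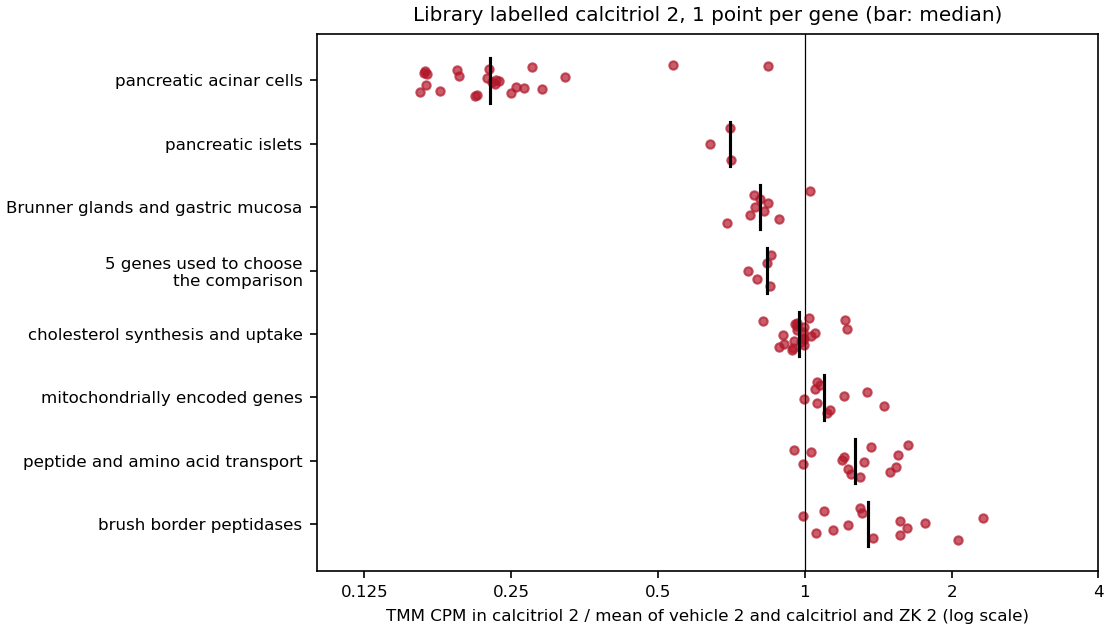
Ratio of TMM CPM in calcitriol 2 to the mean of vehicle 2 and calcitriol and ZK 2, on a log axis, 1 point per gene with a mean of at least 10 CPM in number 2, the bar being the median. Acinar genes lie at a median of 0.226, gastric genes at 0.81, and brush border peptidases at 1.35.

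Of the 28 genes above, 16 were immunoglobulin variable genes and 11 were protein-coding, of which 10 were lower in number 2 than in number 1. *Cyp1a1*, the main target of the aryl hydrocarbon receptor, was the exception. It had 61.5 CPM in calcitriol 2 against 0.545 CPM in vehicle 2 and 0.730 CPM in calcitriol and ZK 2, with 3.59 to 3.63 CPM in libraries numbered 1, 13.5 and 14.0 CPM in vehicle 3 and calcitriol and ZK 3, and 4.05 CPM in calcitriol 3. Brush border peptidases in calcitriol 2 were above both others for 13 of 14 genes, at a median ratio of 1.35, and carriers of peptides and amino acids for 12 of 14, at a median of 1.27, which placed calcitriol 2 between the other libraries of its number and number 1. Among immunoglobulin variable genes, *Igkv4-91* had 20.97 CPM in calcitriol 2 against 500 CPM in vehicle 2 and 462 CPM in calcitriol and ZK 2, and *Ighv1-78* had 47.7 CPM against 3.14 and 3.28 CPM. Without calcitriol 2, 2340 genes were higher and 1579 lower in number 2 than in number 1, and the brush border peptidases had 10 of 14 lower.

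By the treatment on the label, which the choice of the comparison did not use, the 6 libraries showed no called gene in a fit without the number. With edgeR's quasi-likelihood test over 15002 genes, 2 libraries a label and no block, 0 genes (0%) passed a Benjamini-Hochberg adjusted p under 0.05 and a log2 fold change over 0.58 for calcitriol against vehicle, for calcitriol and ZK against vehicle, and for calcitriol and ZK against calcitriol. Before adjustment, p was under 0.05 for 32, 29 and 48 genes in that order. DESeq2 called 0 genes in each comparison, and its p before adjustment was under 0.05 for 27, 9 and 28 genes. The difference between numbers lies inside each label and is part of the spread in this test, and the counts change when the number enters the fit as a block, as given with the alternatives. A lack of calls does not show that the treatments acted alike.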

How the data were processed

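Poly-A RNA of duodenum was sequenced in 9 libraries from a stranded kit. Base calls came from bcl2fastq 2.17.1.14, adapter dimers were discarded, and the authors aligned reads to mm10 by Tophat and Bowtie2, retained unique alignments and quantified genes by HTSeq. The deposited table holds whole-number counts per gene, not normalized, under digits that match the sample descriptions. Neither the strand setting of HTSeq nor its annotation is known from the labels or methods. Symbols and coordinates are from GENCODE M21 (GRCm38, that is mm10) and matched 48349 of 48709 identifiers.

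Genes over 100 reads in total were kept, and CPM were scaled by TMM in edgeR 4.0.16 (R 4.3.3). Number 2 against number 1 was described by non-overlap and a log2 ratio of means over 0.58, where a group with 0 reads was set to 3 reads over the group. Treatment labels were compared with edgeR (quasi-likelihood, Benjamini-Hochberg) and DESeq2 1.42.0. The fit was tested on simulated data. Named genes were the markers, VDR-related genes named by the study, the 10 largest and 10 smallest ratios at 10 CPM or more, the 2 counted members of highest mean in each list, and the most distant genes of calcitriol 2. *Trpm6*, *Cyp27a1*, *Vil1*, *Prss3*, *Try10*, *Amy2a5*, *Spink1*, *Alpi*, *Akp3*, *Gif*, *Atp4a*, *Muc6*, *Reg2*, *Reg3a*, *Reg3d*, *Cybrd1*, *Hmox1*, *Ireb2*, *mt-Co2*, *mt-Co3* and the genes beside the threshold were chosen after their values were seen. The comparison, its members and all lists were chosen with earlier results of these data known. Alternatives were other scalings, read filters and folds, means of log2 values, a block for the number, and fits leaving out single libraries.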

Additional observations from a re-analysis of the deposited data

How the results depend on the processing

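The counts of genes higher and lower in number 2 (2159 and 1371) became 1199 and 873 with a filter of over 1000 reads, 1055 and 416 at a log2 ratio of 1, and 4765 and 4508 with no minimum fold. With each library left out in turn they were 2175 to 2340 and 1351 to 1579, the highest being without calcitriol 2. The 125 named genes gave 1250 values under the alternatives, of which 40 differed by more than the spread between replicates and 0 changed direction. For calcitriol 2, the 98 and 156 genes became 284 and 368 with no filter on reads, 45 and 56 with over 1000 reads, and 285 and 412 at a log2 ratio of 0.58. The median log2 ratio of all genes was 0.015 to 0.076 under the scalings. List counts without calcitriol 2 and list medians under each scaling were chosen after seeing the data. Medians of iron handling, prostaglandin synthesis, regional identity, Paneth cells and crypt cells changed sign around 0.

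With the number as a replicate block, the test by treatment label called 10 genes for calcitriol against vehicle, all lower, 0 for calcitriol and ZK against vehicle, and 9 for calcitriol and ZK against calcitriol, all higher. The 10 were *Reg2*, *Reg3d*, *Pdia2*, *Cckar*, *Pla2g1b*, *Erp27*, *Cuzd1*, *Ctrc*, *Amy1* and *Amy2b*, and all but *Reg3d* were among the 9. All 10 were below 1 CPM in every library numbered 1 and more than 2-fold lower in calcitriol 2 than in both others of its number. *Amy2b*, for example, had 77.6, 18.0 and 74.9 CPM in vehicle 2, calcitriol 2 and calcitriol and ZK 2. These calls thus rest on the 1 library set apart for its pancreatic genes and are no independent evidence on treatment. DESeq2 with the block called 0 in each, and p before adjustment was under 0.05 for 164, 17 and 322 genes, against 772, 276 and 1213 with edgeR. Leaving out 1 library without the block gave 0 calls throughout. With the block, which then leaves 1 residual degree of freedom, the counts in the order of the comparisons were 194, 15 and 171 without vehicle 1, 379, 1 and 438 without calcitriol 1, 11, 0 and 14 without calcitriol and ZK 1, 13, 28 and 166 without vehicle 2, 2, 0 and 1 without calcitriol 2, and 6, 0 and 0 without calcitriol and ZK 2. Deviations of the 2 libraries of a label from their mean mirror each other by construction, so the libraries were taken to share a number only. With 2 libraries a label, precision of the test by treatment is limited.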
